A study of Mus musculus with 9 samples.

Results

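Haemoglobin and erythroid genes were followed in the colon of 9 mice as 6 named genes out of the 27719 genes counted: the adult beta-globin genes Hbb-bs and Hbb-bt, the alpha-globin genes Hba-a1 and Hba-a2, Alas2 and Slc4a1. The genes are chosen by name, with no threshold on their values. The mice, of the C57BL/6J strain by the study's methods, formed 3 groups of 3, with 1 library per mouse: control, DSS and DSS + EA. DSS mice drank 2.5% dextran sulfate sodium, a chemical that injures the colon lining, for 7 days. DSS + EA mice drank it as well and, after 5 days, received electroacupuncture at the point ST36 of both hind legs, 30 minutes a day for 5 days at 2 Hz and 0.2 mA, while control and DSS mice were held in the same frame without it. Whether blood was rinsed from the tissue is not given in the sources used here. The RNA was read as PCR-amplified cDNA on a Nanopore instrument, and library totals were 2627695 to 4235576 counts. A count of 3, the floor used here, corresponds to 0.708 to 1.14 CPM, the counts scaled to a library of 1e6. All 12 markers of colon epithelium on a list were measured well enough to be tested, with a summed level of 2774 to 34372 CPM per library.

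Haemoglobin, the oxygen carrier of red blood cells, is built from alpha and beta chains, each holding a haem group. Mature mammalian red cells have no nucleus, and young red cells, the reticulocytes, still carry globin mRNA made in the bone marrow or spleen. Alas2 is the erythroid form of the first enzyme of haem synthesis, and Slc4a1 (band 3) is the anion exchanger of the red cell membrane. Transcription of these genes in erythroid precursors is driven by factors such as GATA1 and KLF1. In a piece of colon, such RNA can come with blood in vessels or blood that has left them. In bulk tissue, fewer cells of a type and less RNA per cell cannot be told apart.

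The genes lie at 4 places in mm10 (GRCm38, GENCODE M21). The alpha-globin pair lies on the plus strand, Hba-a1 at chr11:32283511-32284465 and Hba-a2 at chr11:32296489-32297298, each with 3 exons. The beta-globin pair lies on the minus strand, Hbb-bt at chr7:103812524-103813996 and Hbb-bs at chr7:103826534-103828096, again with 3 exons each. Alas2 has 11 exons at chrX:150547375-150570638 on the plus strand, inside the span of Apex2 on the minus strand. Slc4a1 has 20 exons at chr11:102348824-102366203 on the minus strand.

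The coding sequences of each globin pair are almost the same, which bears on how reads were divided between the copies. The longest annotated coding transcripts hold 699 bases for Hba-a1, 554 for Hba-a2, 628 for Hbb-bs and 703 for Hbb-bt. Their parts outside the coding sequence were not compared and could also tell copies apart. The coding sequences of Hba-a1 and Hba-a2 hold 429 bases and differ at 1 (C381T, counted from 1 at the A of the start codon, with the base of Hba-a1 named before that of Hba-a2), and the 142 residues they encode are the same. Those of Hbb-bs and Hbb-bt hold 444 bases and differ at 1 (C417T, with the base of Hbb-bs named before that of Hbb-bt), with the same 147 residues. The 41 bases of coding sequence around each difference are shown, with the differing base in capitals, since the reading of this base alone tells the coding sequences of a pair apart.
Hba-a1: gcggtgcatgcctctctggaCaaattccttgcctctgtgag
Hba-a2: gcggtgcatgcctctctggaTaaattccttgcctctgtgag
Hbb-bs: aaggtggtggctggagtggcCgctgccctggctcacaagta
Hbb-bt: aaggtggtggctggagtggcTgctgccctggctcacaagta

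The promoters of the members that moved together are shown because they hold the letters of erythroid and basal promoter motifs. Each is the 250 bases before the RefSeq start in GRCm38.p6, and 5 of the 6 members had a promoter in the table used. Capitals mark GATAA (the core of GATA sites), CACCC (the core of KLF1 sites), CCAAT and TATAA, searched on both strands, where adjacent matches run together.
Hba-a2, chr11:32296242-32296491, plus strand: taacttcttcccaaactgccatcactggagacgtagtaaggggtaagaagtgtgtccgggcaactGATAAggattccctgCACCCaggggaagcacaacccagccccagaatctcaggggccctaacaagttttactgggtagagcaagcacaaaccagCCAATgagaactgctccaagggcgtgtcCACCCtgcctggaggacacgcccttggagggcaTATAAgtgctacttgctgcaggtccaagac
Hbb-bs, chr7:103827929-103828178, minus strand: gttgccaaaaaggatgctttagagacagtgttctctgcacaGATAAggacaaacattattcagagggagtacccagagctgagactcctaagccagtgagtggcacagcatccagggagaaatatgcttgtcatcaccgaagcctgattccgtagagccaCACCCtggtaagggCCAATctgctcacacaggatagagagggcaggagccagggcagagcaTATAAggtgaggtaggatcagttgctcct
Hbb-bt, chr7:103813924-103814173, minus strand: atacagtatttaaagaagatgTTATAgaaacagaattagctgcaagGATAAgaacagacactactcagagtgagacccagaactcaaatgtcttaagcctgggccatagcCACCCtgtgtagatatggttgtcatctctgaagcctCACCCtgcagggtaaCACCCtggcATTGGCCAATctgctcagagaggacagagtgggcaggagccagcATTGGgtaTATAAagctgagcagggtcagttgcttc
Alas2, chrX:150547167-150547416, plus strand: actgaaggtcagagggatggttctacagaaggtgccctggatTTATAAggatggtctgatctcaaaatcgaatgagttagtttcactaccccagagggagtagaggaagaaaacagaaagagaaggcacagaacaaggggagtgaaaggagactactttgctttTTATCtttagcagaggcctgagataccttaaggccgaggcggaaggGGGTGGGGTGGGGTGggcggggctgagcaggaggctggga
The Hba-a1 window matches that of Hba-a2 over 247 bases with 0 mismatches and is not printed. The Hbb-bs and Hbb-bt windows aligned with 185 identical bases, 54 mismatches and 22 gap bases, so the beta pair differs far more in its promoters than in its coding sequence. All 4 globin promoters hold all 4 motifs, which 0.968% of 32851 promoters of the same length do. GATAA alone was in 22.6% of promoters, CACCC in 52.0%, CCAAT in 33.8% and TATAA in 22.8%. On the gene's strand of the globin promoters TATAA starts 27 to 30 bases before the start, CCAAT 75 to 91 bases and GATAA 182 to 209 bases before it. Hbb-bt has a further TATAA match on the opposite strand, 229 to 225 bases before the start, and 2 CCAAT matches there. The Alas2 window holds GATAA on the opposite strand, 86 to 82 bases before the start, 3 adjacent CACCC matches on the opposite strand and TATAA 207 bases before the start, but no CCAAT. These matches are letters in a window and say nothing of binding.

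In the DSS group, the colon held far more globin RNA than in the control group, and in the DSS + EA group far less than in the DSS group. The 4 globins together took 440, 350 and 248 counts in the control mice, 11790, 6572 and 5921 in the DSS mice and 698, 411 and 454 in the DSS + EA mice. As shares of the library, these are 0.0118%, 0.0108% and 0.00944%, then 0.370%, 0.155% and 0.183%, then 0.0214%, 0.0145% and 0.0138%. The lowest DSS mouse had more globin than any mouse of the other groups, and the 3 DSS + EA mice all lay above the 3 control mice. DSS mouse 1 held the most.

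**Figure D1:**
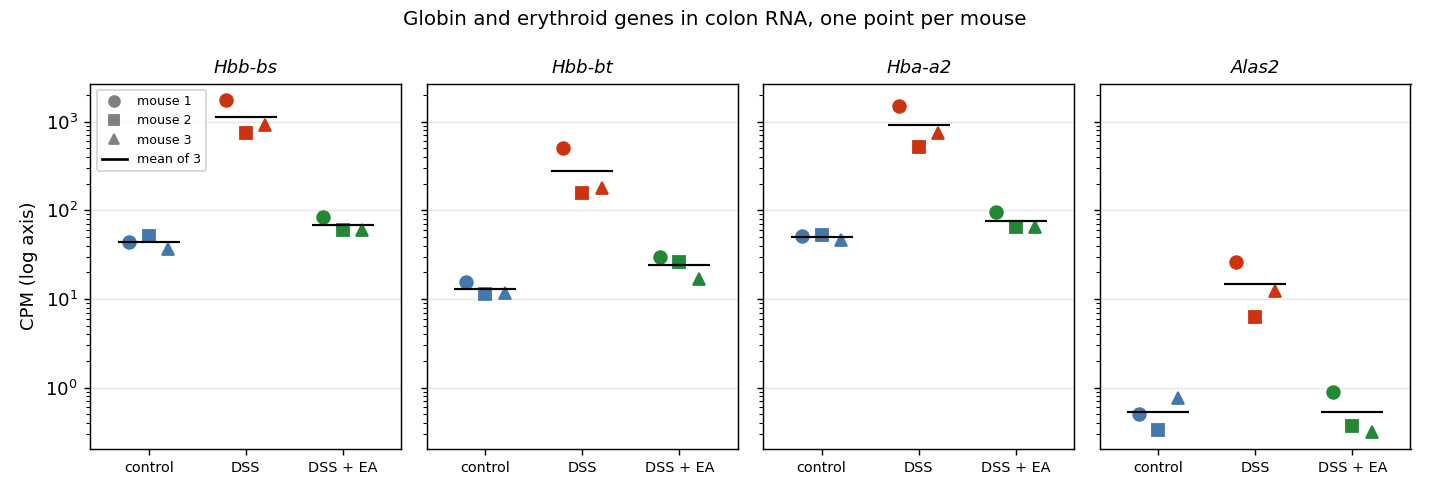
CPM of the 4 members tested, on a log axis, with 1 point per mouse (shape gives the mouse number, which does not pair mice across groups) and a black line at the mean of 3. In each panel the 3 DSS mice lie above all 6 other mice, and for the 3 globins the DSS + EA mice lie above the control mice, at 60.4 to 85.2 against 36.5 to 51.1 CPM for Hbb-bs.

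Hbb-bs, a beta chain of adult haemoglobin, was at 43.6, 51.1 and 36.5 CPM in the control mice, 1747, 740 and 916 CPM in the DSS mice and 85.2, 60.8 and 60.4 CPM in the DSS + EA mice. The groups did not overlap in any pair. Against control it rose in the DSS group by a log2 fold change of 4.69 (SE 0.36, 25.9-fold, edgeR adjusted p = 3.18e-05). DSS + EA mice had 16.5-fold less than DSS mice (log2 fold change -4.04, SE 0.35, edgeR adjusted p = 0.000198). Hbb-bt, the other adult beta gene of this strain, was at 15.4, 11.5 and 11.8 CPM in the control mice, 500.1, 156 and 180 CPM in the DSS mice and 30.2, 26.3 and 17.0 CPM in the DSS + EA mice. Again no pair of groups overlapped. It rose 21.4-fold with DSS (log2 fold change 4.42, SE 0.48, edgeR adjusted p = 0.000168) and was 11.4-fold lower with DSS + EA than with DSS (log2 fold change -3.50, SE 0.46, edgeR adjusted p = 0.000754). Without DSS mouse 1 its log2 fold changes were 3.66 and -2.75, and both still passed.

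Hba-a2, which took nearly all alpha-globin counts, was at 51.9, 52.8 and 46.0 CPM in the control mice, 1514, 519 and 737 CPM in the DSS mice and 95.4, 65.2 and 65.5 CPM in the DSS + EA mice. It too showed no overlap between any groups. It rose 18.4-fold with DSS (log2 fold change 4.20, SE 0.40, edgeR adjusted p = 8.58e-05) and was 12.2-fold lower with DSS + EA than with DSS (log2 fold change -3.61, SE 0.39, edgeR adjusted p = 0.000386), the latter at -3.03 without DSS mouse 1. Hba-a1, the copy with a near-identical coding sequence, had 6, 5 and 2 counts in the DSS mice and 0 elsewhere, too few to be tested. It took 13 of 9544 alpha-globin counts in the DSS group, 0.136% (exact 95% interval 0.0725% to 0.233%). In the control group it took 0 of 487 (exact 95% upper limit 0.755%) and in the DSS + EA group 0 of 700 (0.526%). A difference in this share was therefore not detectable at this depth. How reads of the copies were divided between them is not given in the sources used here, and the split between copies is uncertain for both pairs. These intervals and limits cover counting error only.

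Alas2, the haem synthesis enzyme of erythroid cells, had counts of 2, 1 and 2 in the control mice, 82, 29 and 40 in the DSS mice and 3, 1 and 1 in the DSS + EA mice. In CPM these are 0.504, 0.330 and 0.760, then 26.2, 6.25 and 12.4, then 0.906, 0.370 and 0.315, so that each control and DSS + EA library was at or under the floor of 3 counts and the groups overlapped, with the DSS mice far above both. It rose with DSS (log2 fold change 4.73, SE 0.68, edgeR adjusted p = 0.00065) and fell with DSS + EA against DSS (log2 fold change -4.67, SE 0.68, edgeR adjusted p = 0.0012). Without DSS mouse 1 these changes were 4.02 and -3.96, and without DSS + EA mouse 1 the latter was -5.30, all still passing. Because a fitted fold at so few counts depends on the prior count, the ratio of summed counts is given as well, 27.2 for DSS over control with a counting interval of 11.4 to 85.0 and 26.6 for DSS over DSS + EA with 11.2 to 83.1. Alas2 made up 0.285% to 0.8% of the summed globin and Alas2 counts in the control mice, 0.439% to 0.691% in the DSS mice and 0.220% to 0.428% in the DSS + EA mice. The range of the DSS mice lay inside that of the control mice and above that of the DSS + EA mice, which rests on 1 to 3 counts a library. Apex2, a DNA repair gene that overlaps Alas2 on the opposite strand, had 9 to 13 counts in the control mice, 9 to 15 in the DSS mice and 10 to 15 in the DSS + EA mice, and these ranges overlapped.

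Slc4a1, the band 3 anion exchanger, had 0 counts in all 9 libraries, which allows at most the floor of 3 counts in each. It could not be tested, and no change was detectable at this depth.

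Read against the whole table, 4 of the 6 members were tested and all 4 rose with DSS against control at an adjusted p under 0.05, as did 21.5% of the 12566 genes tested, while 19.5% fell. All 4 also met the study's limits for differentially expressed genes, a log2 fold change beyond 2.5 and an unadjusted P under 0.01, as did 6.62% in the upward direction. For 26.1% of genes all DSS mice lay above all control mice, as for the 4 members. Ranked from the most increased gene, Alas2 was at place 213, Hbb-bs at 215, Hbb-bt at 254 and Hba-a2 at 293. In the DSS + EA group against the DSS group, 4 of 4 fell, as did 18.3% of genes, while 17.2% rose. All 4 met the study's limits, as did 3.5% in the downward direction, and all 4 had no overlap between groups, as did 23.3%. Ranked from the most decreased gene, Alas2 was at place 59, Hbb-bs at 104, Hba-a2 at 147 and Hbb-bt at 162. The median log2 fold change of the members tested was 4.56 and -3.83 in these comparisons, beside 0.02 and -0.02 over all genes tested. The DSS mice enter both comparisons, which are therefore not independent. Hba-a1 and Slc4a1 do not enter these counts.

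**Figure D2:**
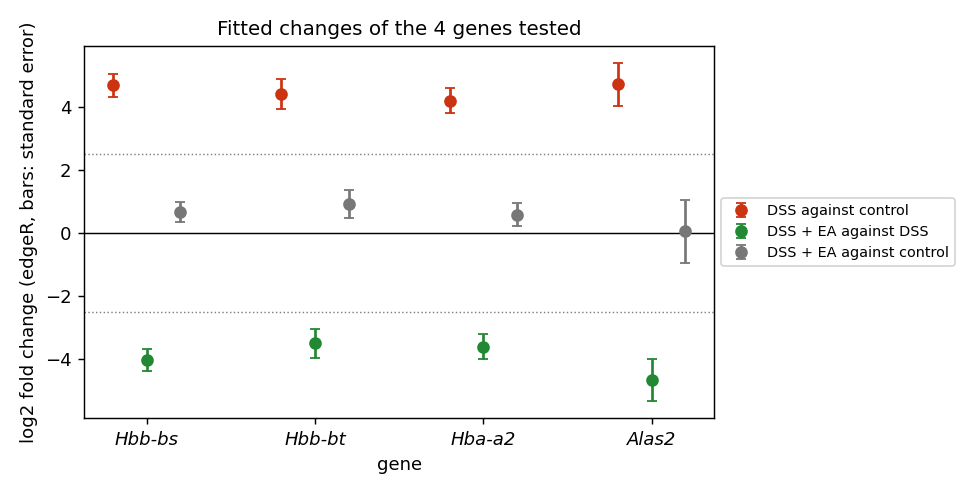
Fitted log2 fold changes of the 4 members tested, with bars of 1 standard error, in 3 comparisons. Dotted lines mark the limit of 2.5 in either direction. The DSS against control values lie between 4.20 and 4.73, the DSS + EA against DSS values between -4.67 and -3.50, and the DSS + EA against control values between 0.05 and 0.92.

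Between the DSS + EA and control groups, none of the 4 members passed the test with edgeR (0 at an unadjusted P under 0.05, and 0 with DESeq2), where 3.0% of all genes tested were higher and 0.637% lower, and 1.74% met the study's limits upward. The log2 fold changes were 0.65 (SE 0.32, edgeR adjusted p = 0.338) for Hbb-bs, 0.92 (SE 0.45, edgeR adjusted p = 0.336) for Hbb-bt and 0.58 (SE 0.36, edgeR adjusted p = 0.454) for Hba-a2. For these 3 globins each DSS + EA mouse was above each control mouse, a pattern found for 18.0% of all genes tested. For Alas2 the log2 fold change was 0.05 (SE 1.01, edgeR adjusted p = 0.99), from 5 counts in each group, a ratio of 1.02 with a counting interval of 0.235 to 4.44. Without DSS mouse 1, 3 of 4 members had an unadjusted edgeR P under 0.05 in this comparison. Without the filter 2 of 5 did, and in both fits 0 passed the adjusted p. A p over the threshold does not show that the groups are alike.

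The share of alpha chains among the globin counts was lower in the DSS mice than in all others; this was not tested. Alpha-globin took 46.8%, 45.7% and 48.8% of globin counts in the control mice, 40.3%, 36.7% and 40.2% in the DSS mice and 45.3%, 42.8% and 45.8% in the DSS + EA mice. The 3 DSS mice lay below all 6 other mice, whose groups overlapped. Summed over mice, the share was 46.9% (exact 95% interval 43.8% to 50.0%) in the control group, 39.3% (38.7% to 39.9%) in the DSS group and 44.8% (42.3% to 47.3%) in the DSS + EA group. These intervals cover counting error only and leave out the spread between mice. All 3 DSS mice lay outside the interval of their own group. The share of Hbb-bt in the beta-globin counts was 26.1%, 18.4% and 24.4% in the control mice, 22.3%, 17.4% and 16.4% in the DSS mice and 26.2%, 30.2% and 22.0% in the DSS + EA mice, and every pair of groups overlapped. As shares of counts, these values are compared between groups only, since they depend on transcript length and on how reads were assigned.

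**Figure D3:**
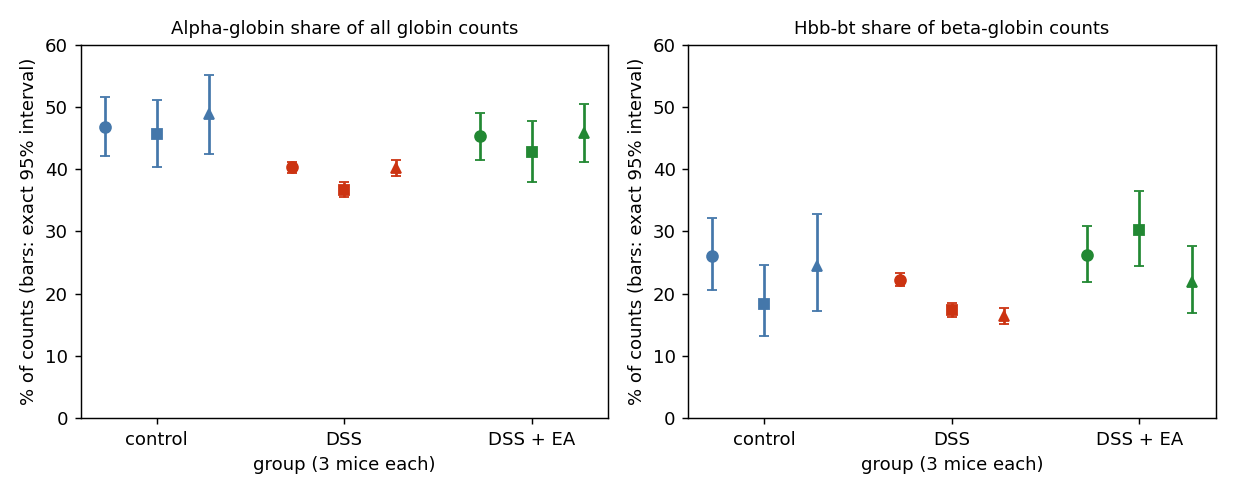
Alpha-globin as a percent of all globin counts (left) and Hbb-bt as a percent of beta-globin counts (right), with 1 point per mouse and exact 95% intervals for counting error. In the left panel the DSS mice, at 36.7% to 40.3%, lie below the other 6 mice, at 42.8% to 48.8%; in the right panel the groups overlap.

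Few of the other globins, which are not all genes of red cells, and few genes of the red cell membrane were counted often enough to be tested. Of 9 other globins on a list and in the deposited counts, 2 were tested. Cygb, cytoglobin of fibroblast-like cells, rose with DSS from 46.7 ± 2.48 to 143 ± 14.3 CPM (SD, n = 3; log2 fold change 1.62, edgeR adjusted p = 0.000609) and was at 58.1 ± 16.6 CPM with DSS + EA, where it fell against DSS (log2 fold change -1.31, edgeR adjusted p = 0.00261). The embryonic globins on the list (Hbb-y, Hbb-bh1, Hbb-bh2 and Hba-x) had at most 1 count in any library. Of 18 genes of the red cell membrane and skeleton 3 were tested, 0 rose with DSS, and 0 changed with DSS + EA against DSS (edgeR; 0 at an unadjusted P under 0.05 in the latter comparison, and 0 of 15 with DESeq2). Epb42, Rhag and Kel, proteins of the red cell membrane, had 0 counts in all libraries.

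Regulators of red cell formation mostly had low counts, and the calls among them changed with the filter, the tool and single mice left out. Of 13 regulators and maturation genes in the deposited counts, 2 passed the filter: Tfrc, the transferrin receptor, and Bpgm, which makes 2,3-bisphosphoglycerate, and neither passed the edgeR test over all 9 mice (0 at an unadjusted P under 0.05 in the comparisons with DSS mice). Without DSS mouse 1, Bpgm was lower with DSS than in control (log2 fold change -0.63, edgeR adjusted p = 0.0413), and Bpgm (1.17, edgeR adjusted p = 0.00286) and Tfrc (1.47, edgeR adjusted p = 0.00942) were higher with DSS + EA than with DSS. Without DSS mouse 3, Tfrc was higher with DSS than in control (1.10, edgeR adjusted p = 0.0164). Tfrc also passed between DSS + EA and control without DSS mouse 1 (edgeR adjusted p = 0.0238), without DSS mouse 3 (0.0139), with only these groups in the fit (0.00226) and in DESeq2 (0.0229), against an edgeR adjusted p of 0.0988 over all 9 mice (log2 fold change 1.53). With DESeq2, which tested 10 of them, 4 rose with DSS against control, and the same 4 rose in edgeR without the filter: Lmo2, Nfe2, Tal1 and Trim10. Nfe2, a factor of erythroid and megakaryocyte genes, reached 2, 46 and 9 counts in the DSS mice, against 0 to 1 and 0 to 2 in the control and DSS + EA mice, and was low in DSS mouse 1, where the globins were highest. Tal1, a factor of blood and endothelial development, had 8, 22 and 12 counts in the DSS mice against 2 to 4 in the control mice. Klf1, Hemgn and Trim58 had 0 counts in all 9 libraries, and Gata1 had at most 2 in a control mouse and 0 in every mouse given DSS. Epor, the erythropoietin receptor, had 0 to 2 counts. These levels are those of a bulk colon library and are no measure of cells elsewhere in the animal.

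The other genes of haem synthesis, taken as a list of enzymes and carriers, showed no such common rise. All 13 genes on the list were tested. With DSS against control 1 rose and 3 fell, and with DSS + EA against DSS 4 rose and 1 fell, with median log2 fold changes of -0.56 and 0.45. Of all genes tested, 21.5% rose and 19.5% fell with DSS, and 17.2% rose and 18.3% fell with DSS + EA against DSS. Uros, uroporphyrinogen synthase, fell from 15.1 ± 1.27 to 2.89 ± 0.577 CPM with DSS (SD, n = 3; edgeR adjusted p = 0.000156) and was at 9.97 ± 0.66 CPM with DSS + EA, higher than with DSS (edgeR adjusted p = 0.0012). Abcb6, a porphyrin transporter, also fell with DSS (log2 fold change -1.78, edgeR adjusted p = 0.0011). The member that rose is Slc25a37 (mitoferrin, the mitochondrial iron importer), with 19, 21 and 24 counts in the control mice, 24, 115 and 102 in the DSS mice and 20, 15 and 19 in the DSS + EA mice, with DSS mouse 1, the mouse with the most globin, inside the control range in CPM (log2 fold change 1.64, edgeR adjusted p = 0.0181). Its rise did not pass without control mouse 1 (edgeR adjusted p = 0.073), control mouse 2 (0.057), DSS mouse 2 (0.0521) or DSS mouse 3 (0.0582). The 4 haem synthesis genes called with DSS were 2 without control mouse 1, control mouse 2 or DSS mouse 3, and the 5 called with DSS + EA against DSS were 3 without DSS mouse 3, DSS + EA mouse 1 or DSS + EA mouse 3 and also 3 with the replicate block.

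Genes that clear free haemoglobin and haem rose with DSS in 6 of 7 tested (of 8 listed) and fell in 1, and 5 fell and 1 rose with DSS + EA against DSS. The shares of all genes tested were 21.5% up and 19.5% down with DSS. They were 17.2% up and 18.3% down with DSS + EA against DSS. Hp, haptoglobin, the plasma protein that binds free haemoglobin, had counts of 12, 17 and 23 in the control mice, 3132, 4634 and 6959 in the DSS mice and 368, 397 and 269 in the DSS + EA mice, and was the member of the list that also passed the test between the DSS + EA and control groups (log2 fold change 4.33, SE 0.47, edgeR adjusted p = 0.00232). Hmox1, haem oxygenase 1, had 24, 9 and 10 counts, then 152, 704 and 1354, then 39, 50 and 51; it rose with DSS (log2 fold change 5.55, edgeR adjusted p = 0.000476) and fell with DSS + EA against DSS (log2 fold change -3.74, edgeR adjusted p = 0.00297). Cd163, the macrophage receptor for haemoglobin bound to haptoglobin, rose with DSS (log2 fold change 3.96, edgeR adjusted p = 0.000364) and fell with DSS + EA against DSS (log2 fold change -2.52, edgeR adjusted p = 0.00309). Within the DSS group, the tested genes Hmox1, Cd163 and Lrp1 were lowest in the mouse where the globins were highest. In DSS mice 1, 2 and 3, Hmox1 was at 48.5, 152 and 419 CPM and Cd163 at 33.8, 41.8 and 67.8 CPM. Lrp1 was at 86.2, 146 and 138 CPM and Hp at 999.6, 999.0 and 2155 CPM in these mice. Slc40a1, the iron exporter ferroportin and the gene of the list that fell with DSS, was at 38.0, 7.5 and 18.3 CPM in the same mice, in the order of the globins, and Blvra and Blvrb, which reduce biliverdin, were lowest in mouse 2. The 7 genes called with DSS were 4 without control mouse 1, control mouse 3 or DSS mouse 3, while Hp, Hmox1 and Cd163 passed with each single mouse left out.

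**Figure D4:**
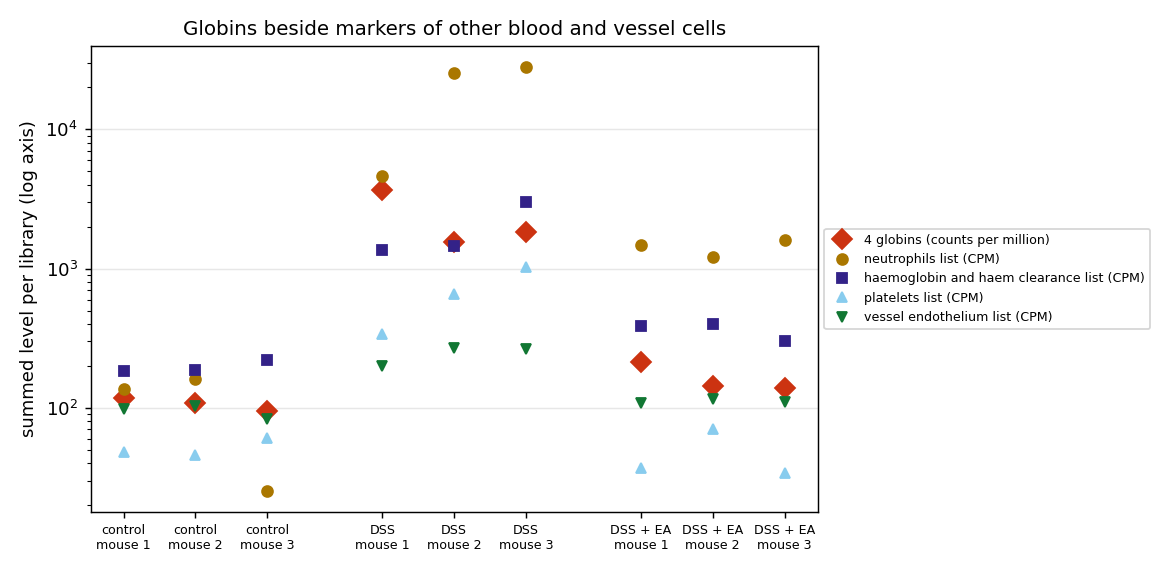
Summed level per library on a log axis for the 4 globins (share of the library total, on the scale of CPM without TMM) and 4 marker lists (CPM). The globins are highest in DSS mouse 1, at 3697, while the neutrophil list is lowest there among the DSS mice, at 4602 against 25425 and 28002 CPM.

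Markers of other cells were set beside the globins because blood, vessels and infiltrating cells could all move with them. As a scale for the marker counts, 21.5% of all genes tested rose and 19.5% fell with DSS. With DSS + EA against DSS, 17.2% rose and 18.3% fell. Of 12 neutrophil markers 11 were tested and 11 rose with DSS and 9 fell with DSS + EA against DSS, with a summed level of 25.5 to 160 CPM in the control mice, 4602, 25425 and 28002 CPM in the DSS mice and 1213 to 1599 CPM in the DSS + EA mice. Of 13 platelet markers 2 were tested: Pf4, platelet factor 4, rose with DSS (log2 fold change 3.83, edgeR adjusted p = 0.000236) and fell with DSS + EA against DSS (log2 fold change -3.97, edgeR adjusted p = 0.000472), and Itga2b had log2 fold changes of 1.23 (edgeR adjusted p = 0.0505) and -1.39 (edgeR adjusted p = 0.0397), the latter not passing in DESeq2 (adjusted p = 0.0894) or in 7 of 9 fits with a single mouse left out (adjusted p up to 0.132). DESeq2 and edgeR without the filter tested 11 of these markers, and in both Ppbp, a platelet chemokine, also rose with DSS and fell with DSS + EA against DSS. The count of 1 platelet marker called with DSS was 2 or 3 without any single control or DSS + EA mouse and without DSS mouse 1, and 2 under either other scaling. Of 12 vessel endothelium markers 8 rose with DSS and 7 fell with DSS + EA against DSS, with median log2 fold changes of 1.61 and -1.53. Per endothelial count the globin counts were 1.12, 1.13 and 1.13 in the control mice, 18.7, 5.23 and 6.96 in the DSS mice and 1.94, 1.32 and 1.30 in the DSS + EA mice. The mean was 1.13 in the control, 10.3 in the DSS and 1.52 in the DSS + EA group, beside 0.0107%, 0.236% and 0.0166% of the library, so the DSS and control groups lay closer together on this scale than as shares of the library. Of 12 epithelial markers 7 fell with DSS (11 were called without DSS mouse 1), and of 8 smooth muscle markers 6 fell. With DSS + EA against DSS, 4 of the epithelial markers (10 without DSS mouse 1) and 2 of the smooth muscle markers (4 without DSS mouse 3) rose. The part of each of these cell types in the globin levels was not tested.

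The 10 markers of pancreatic acinar cells were far higher in DSS + EA mice 2 and 3, with a sum of 64877 and 40298 counts. The sum was 1520 in DSS + EA mouse 1 and 136 to 945 in the control and DSS mice, where Cela1 alone had 133 to 943. Prss2 and Amy2a5 had 241 and 246 counts in DSS + EA mouse 1, against 0 to 2 and 0 to 1 in the control and DSS mice. All 10 rose with DSS + EA against DSS. Leaving out DSS + EA mice 2 and 3 therefore lowers this signal but does not remove it. Without these 2 mice, leaving 1 DSS + EA mouse that is assumed to vary like the other groups, 2 of the 4 members still passed the test against DSS, and Hbb-bt (edgeR adjusted p = 0.0513) and Alas2 (edgeR adjusted p = 0.0647) did not; the 4 members met the study's limits as before. Under the same choice, 2 of 12 endothelial and 1 of 12 neutrophil markers passed against DSS, and Hmox1 (log2 fold change -4.11, edgeR adjusted p = 0.0814) and Cygb (-1.11, edgeR adjusted p = 0.0734) did not, at changes close to those with all mice. S100a8 (-4.22) and Vwf (-1.81) likewise kept changes near their values of -4.65 and -1.81 with all mice without passing the test. The DSS + EA mouse with the least of this signal, mouse 1, had the most globin of its group, 698 counts. The part of the pancreatic signal in the globin levels was not tested.

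The genes whose log2 CPM over the 9 libraries was most like the mean of the 4 globins were the new gene ONT.15465 (Pearson's r = 0.990), Tmem100 (0.984), Maip1 (0.983), Zwint (0.980) and Castor1 (0.979), against 0.979 for Alas2. The mean weighs the 4 globins alike, including Hba-a1, which had 6, 5 and 2 counts in the DSS mice and 0 elsewhere. How far Hba-a1 shaped the order of these genes was not tested. These r values describe 9 libraries that share group differences, and 462 genes tested had an r above 0.9. The log2 of the summed CPM plus 1 had 0.918 for the endothelial list, 0.887 for the platelet list and 0.803 for the neutrophil list. Such sums are led by the most counted genes, as by Pf4 with 1022 of the 1057 platelet counts in DSS mouse 1. Tmem100 had counts of 20, 24 and 11 in the control mice, 192, 215 and 124 in the DSS mice and 27, 18 and 20 in the DSS + EA mice. ONT.15465, a gene that the authors' annotation added, had 17, 14 and 13 counts in the DSS mice and 1 in the other 6 together.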

How the data were processed

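Colon RNA of 9 mice was measured, 3 per group. The authors deposited raw read counts for each gene as whole numbers; the genome build mm10 is from the submitters' processing notes, and the aligner, counting tool and use of strand are not given in the sources used here. How reads that match 2 copies, or 2 genes that overlap, were assigned is unknown here. The library is amplified by PCR, so counts are not independent molecules. Of the table, 14 lines held no counts and were skipped.

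The test was edgeR 4.0.16 under R 4.3.3 (TMM, filterByExpr by group, prior count 0.125, quasi-likelihood F test) in 1 fit of all 9 libraries by group alone, with Benjamini-Hochberg adjustment over the 12566 genes kept. "Rose" and "fell" mean an adjusted p-value under 0.05. CPM are scaled by TMM. DESeq2 1.42.0 is an alternative, among 19 tried. Standard errors are those implied by the F statistic. Shares have exact (Clopper-Pearson) 95% intervals. Mice of a group are separate animals by the labels. Scripts were tested on simulated data.

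The members and lists were chosen with earlier results of these data known. Genes named beside the members are, from each list, up to 4 called genes with the smallest P, or the 2 most counted where none was called, and the 5 genes most correlated with the globins. Genes named outside this rule, at or near 0 counts or with counts given, were chosen after their values were seen. Some results of the lists are not reported here. Sequences are from GENCODE M21 and RefSeq (GRCm38.p6). Python 3.11.15 with pandas 2.3.3, scipy 1.17.1 and matplotlib 3.10.9 was used.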

Additional observations from a re-analysis of the deposited data

How the results depend on the processing

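Of the member counts recomputed under 19 alternatives, 113 were within 1.5 times the value reported and 1 was not: without DSS + EA mice 2 and 3 together, a choice made after seeing the data, 2 members passed the adjusted p in DSS + EA against DSS. Of the fitted changes of members, 217 kept their direction and side of the threshold, 2 no longer passed (Hbb-bt and Alas2 under that choice) and 2 changed sign, both for Alas2 in DSS + EA against control, at -0.16 without control mouse 2 and -0.59 without DSS + EA mouse 1 in a range of -0.59 to 0.32 over the single mice left out, from 1 to 3 counts a library. Leaving out each mouse in turn gave Hbb-bs 4.21 to 4.94 with DSS and -4.28 to -3.56 with DSS + EA against DSS. With a prior count of 2, Alas2 was at 3.77 and -3.75. With no filter, Hba-a1 was tested too and 5 members passed in both comparisons; with a mean of at least 20 counts, 3 did, since Alas2 was not tested, and with copies summed, 3 of 3 rows did. DESeq2 tested 5 members and called 4. Between DSS + EA and control the adjusted p of Hbb-bt ranged from 0.0563 to 0.818 over the alternatives. With a replicate block, 4, 4 and 0 members passed, as reported; same-numbered mice are different animals, the correlations of their deviations were -0.16 to 0.11, the best match had its own number in 2 of 18 cases, and the samples share only a number. Of the marker list counts, 104 moved by over 1.5 times and 523 did not. The limit of depth is greatest for Slc4a1, Hba-a1 and Alas2.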
